A study of Mus musculus with 24 samples.

Results

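The variable (V) segments of the immunoglobulin genes were followed in 24 mouse tumours. They were taken as every row of the deposited raw count table whose mouse symbol begins with Ighv, Igkv or Iglv, which gave 348 of the 55414 genes in the table, 185 of them heavy chain (Ighv), 160 kappa light chain (Igkv) and 3 lambda light chain (Iglv). The study sequenced bulk RNA from D4M tumours, a transplanted mouse melanoma line, grown in wild-type C57BL/6 mice. There were 6 tumours in each of 4 groups. The IgG2a group received an IgG2a control antibody by intraperitoneal injection, and the PD-1 group received an antibody against the checkpoint receptor PD-1 by the same route. The BRQ+IgG2a group received brequinar (BRQ), an inhibitor of the pyrimidine synthesis enzyme DHODH, together with the control antibody, and the BRQ+PD-1 group received brequinar with the PD-1 antibody. All mice therefore carried an injected antibody, and no untreated tumour was analysed here. Of the defining pigment cell markers, Dct and Tyr were at 0 counts in all 24 tumours, Tyrp1 was counted in 1 tumour and Mlana in 5, while Pmel was counted in all 24 at 0.0776 to 1.51 CPM and Mitf was counted in all 24 at 11.6 to 48.2 CPM (the count of a gene scaled to its library's total, the same for every library).

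Each B cell builds each chain of its antibody, heavy and light, by joining 1 V segment to a shorter joining segment. In the heavy chain a diversity segment lies between them. The finished V exon is spliced to a constant region, and that of the heavy chain sets the antibody class. A segment is transcribed at a high level only after this joining, and most strongly in plasma cells, which secrete antibody. RNA from many B cells with different receptors therefore spreads over many V segments, whereas RNA from a few expanded clones is held by few. V segments also resemble one another closely, and B cells can mutate them further after they meet antigen.

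The segments on which the results turn are printed below with a close relative, so that the bases that separate them can be seen. The sequences are the V exons without the last bases of the leader peptide, taken from the GRCm38 genome and GENCODE M21 gene models, 5′ to 3′ on the coding strand. That build is not the one the counts were made on (GRCm39), so the coordinates locate the sequences in GRCm38 only. Capitals mark bases that differ between the 2 members of a pair. Ighv1-82 (chr12:115952538-115952831, minus strand) took most V counts of any segment, and Ighv1-80 (chr12:115912344-115912637, minus strand) is its nearest relative at 96.26% identity, with 11 differing bases.
Ighv1-82: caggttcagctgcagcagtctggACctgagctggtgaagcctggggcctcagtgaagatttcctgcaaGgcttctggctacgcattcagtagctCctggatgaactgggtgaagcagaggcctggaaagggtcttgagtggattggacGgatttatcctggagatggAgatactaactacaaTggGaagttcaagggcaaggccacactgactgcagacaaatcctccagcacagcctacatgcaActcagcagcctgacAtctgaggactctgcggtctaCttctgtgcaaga
Ighv1-80: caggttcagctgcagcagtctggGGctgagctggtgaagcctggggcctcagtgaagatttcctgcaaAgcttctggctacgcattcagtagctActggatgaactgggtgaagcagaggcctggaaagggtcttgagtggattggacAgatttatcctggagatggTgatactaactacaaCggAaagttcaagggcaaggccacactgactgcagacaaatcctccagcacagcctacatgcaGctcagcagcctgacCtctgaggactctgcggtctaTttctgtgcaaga

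Igkv6-23 (chr6:70260409-70260695, minus strand) and Igkv6-25 (chr6:70215671-70215957, plus strand) were the 2 members of the Igkv6 family with the highest mean share of V counts, and they differ at 18 bases. Iglv1 (chr16:19085017-19085310, minus strand) and Iglv2 (chr16:19260401-19260694, minus strand) differ at 7.
Igkv6-23: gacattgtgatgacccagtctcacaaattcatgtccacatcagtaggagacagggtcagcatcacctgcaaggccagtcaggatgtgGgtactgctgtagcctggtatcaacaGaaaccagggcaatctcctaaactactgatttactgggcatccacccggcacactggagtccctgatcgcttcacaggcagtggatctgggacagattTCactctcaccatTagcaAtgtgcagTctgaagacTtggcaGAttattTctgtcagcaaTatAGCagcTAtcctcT
Igkv6-25: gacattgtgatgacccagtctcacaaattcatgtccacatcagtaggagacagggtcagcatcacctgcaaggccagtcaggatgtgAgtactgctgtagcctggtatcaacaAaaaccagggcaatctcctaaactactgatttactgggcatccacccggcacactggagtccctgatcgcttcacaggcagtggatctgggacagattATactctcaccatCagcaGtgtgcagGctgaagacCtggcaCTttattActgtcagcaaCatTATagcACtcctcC
Iglv1: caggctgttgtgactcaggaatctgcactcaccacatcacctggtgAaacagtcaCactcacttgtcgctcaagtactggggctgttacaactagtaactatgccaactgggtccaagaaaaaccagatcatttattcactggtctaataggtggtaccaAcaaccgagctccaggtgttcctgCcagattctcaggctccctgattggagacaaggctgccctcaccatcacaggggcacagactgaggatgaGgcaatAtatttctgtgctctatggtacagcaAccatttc
Iglv2: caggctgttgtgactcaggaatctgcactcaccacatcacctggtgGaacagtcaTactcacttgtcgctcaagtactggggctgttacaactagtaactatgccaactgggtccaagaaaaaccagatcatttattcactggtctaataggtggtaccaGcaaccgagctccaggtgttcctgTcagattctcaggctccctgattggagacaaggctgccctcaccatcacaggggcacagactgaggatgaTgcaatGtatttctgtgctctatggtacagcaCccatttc

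The last 2 segments, Ighv2-9-1 (chr12:113769850-113770142, minus strand) and Igkv9-120 (chr6:68050170-68050456, plus strand), together held more than 55% of the V counts of a single control tumour. Their capitals mark the bases that differ from their nearest relatives, Ighv2-6-8 (16 bases) and Igkv9-124 (12 bases).
Ighv2-9-1: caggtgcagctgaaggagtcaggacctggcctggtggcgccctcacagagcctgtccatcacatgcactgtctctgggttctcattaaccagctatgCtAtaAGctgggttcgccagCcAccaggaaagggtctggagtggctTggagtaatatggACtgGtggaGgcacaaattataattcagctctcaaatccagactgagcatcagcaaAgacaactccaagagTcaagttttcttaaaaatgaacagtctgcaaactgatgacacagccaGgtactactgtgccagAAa
Igkv9-120: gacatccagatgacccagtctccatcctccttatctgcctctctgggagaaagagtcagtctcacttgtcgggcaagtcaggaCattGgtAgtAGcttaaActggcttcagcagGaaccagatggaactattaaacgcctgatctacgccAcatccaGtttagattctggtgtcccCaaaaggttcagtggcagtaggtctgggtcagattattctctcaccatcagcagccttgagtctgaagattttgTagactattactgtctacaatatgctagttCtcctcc

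Among the 194 segments with at least 1 count, the median identity of the V exon to its nearest relative was 95.24%. At least 95% identity to another segment was found for 101 of them, which held 69.28% of the V counts, and 2 were identical to another segment. How the authors counted reads that match more than 1 segment is not given in the sources used here, so the segment named for a count is uncertain where such a relative exists.

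V segment RNA was scarce in every tumour. The 348 rows held 6858 counts in all, between 42 and 1584 per tumour, in libraries of 19106205 to 34282319 counts. Of the 348 segments, 154 were not counted in any tumour, 38 were counted in exactly 1, 25 in 12 or more, 7 in 20 or more and none in all 24. The counts were nearly all on segments annotated as functional: 185 of 218 functional segments were counted, against 9 of 130 pseudogenes, which held 20 counts or 0.292% of the total. Kappa segments held 51.4% of the V counts, heavy segments 42.7% and lambda segments 5.89%.

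The groups overlapped in their level of V segment RNA, and single tumours stood far above the rest. Summed over all segments, it was lowest, median and highest at 1.45, 4.08 and 23.3 CPM in the IgG2a tumours and at 3.41, 6.05 and 61.6 CPM in the PD-1 tumours. In the BRQ+IgG2a tumours it was 2.83, 9.58 and 19.1 CPM, and in the BRQ+PD-1 tumours 3.65, 9.33 and 38.0 CPM. The group means were 7.07 ± 8.27, 15.2 ± 22.9, 9.48 ± 6.01 and 13.1 ± 12.5 CPM (SD, n = 6 each), in the same order. Every pair of groups overlapped, and 5 of 6 tumours of each treated group lay above the IgG2a median. In bulk RNA, fewer B lineage cells and less immunoglobulin RNA per cell cannot be told apart.

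A few tumours held much of the V RNA. IgG2a replicate 2, PD-1 replicate 6 and BRQ+PD-1 replicate 3 held 56.2%, 67.0% and 46.1% of the V counts of their groups, and the 5 tumours with most V counts held 57.6% of those of the series. On the scale of log2(CPM + 0.1), the mean summed level was above that of the IgG2a tumours by 1.12 in BRQ+PD-1, 0.85 in PD-1 and 0.78 in BRQ+IgG2a. These 3 differences share the IgG2a tumours and are not independent, and each is smaller than the SD of 1.42 among the IgG2a tumours. Without PD-1 replicate 6 the PD-1 difference was 0.27. BRQ+PD-1 lay above PD-1 by 0.27 and above BRQ+IgG2a by 0.35, and without BRQ+PD-1 replicate 3 these turned to -0.11 and -0.039.

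Of the libraries named here, IgG2a replicates 2 and 3, PD-1 replicate 6 and BRQ+IgG2a replicate 4 were rich in skeletal muscle RNA, with Acta1, the actin of skeletal muscle, above 1000 CPM. Without these 4 the summed V level was 4.20 ± 2.66 CPM in IgG2a (SD, n = 4), 5.88 ± 2.62 in PD-1 (SD, n = 5) and 8.98 ± 6.57 in BRQ+IgG2a (SD, n = 5). BRQ+PD-1 replicate 3, second of the 24 by V level, had Acta1 at 0.353 CPM.

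**Figure D1:**
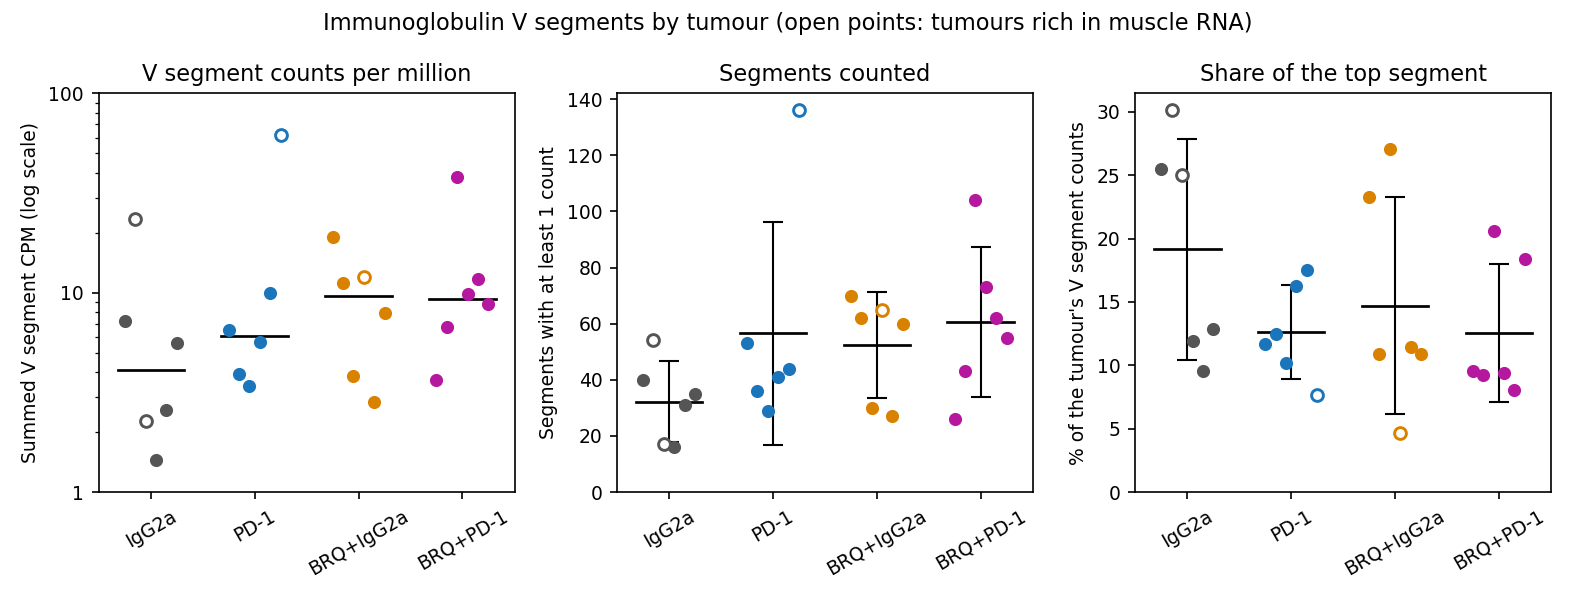
Left, summed V segment level in CPM on a log scale for each tumour (point), with the group median (line); middle, number of segments with at least 1 count; right, share of the tumour's V counts held by its top segment, the last 2 with mean and SD. Open points are the 4 tumours with Acta1 above 1000 CPM. In all 3 panels the groups overlap, and PD-1 replicate 6, at 61.6 CPM and 136 segments, is the highest point of the left and middle panels.

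More segments were counted where there were more V counts. It was lowest, median and highest at 16, 33 and 54 in the IgG2a tumours and 29, 42.5 and 136 in the PD-1 tumours. For BRQ+PD-1 these were 26, 58.5 and 104, and for BRQ+IgG2a 27, 61 and 70. The means of IgG2a, PD-1, BRQ+IgG2a and BRQ+PD-1 were 32.2 ± 14.4, 56.5 ± 39.8, 52.3 ± 18.8 and 60.5 ± 26.7 segments (SD, n = 6 each). When each tumour was brought to the same 52 V counts, the expected number was 20.6 ± 4.36 in IgG2a (SD, n = 5, with IgG2a replicate 4 left out at 42 counts). For BRQ+PD-1, BRQ+IgG2a and PD-1 it was 28.1 ± 4.19, 27.8 ± 3.50 and 26.5 ± 2.96 (SD, n = 6 each). The IgG2a tumours remained lowest on average at equal counts, and their range of 15.9 to 26.8 still overlapped those of the other groups, which began at 23.8, 24.4 and 22.0. At equal V counts, IgG2a replicate 2 had the lowest number of the series at 15.9, and IgG2a replicate 3 was next at 17. Both are muscle-rich libraries. IgG2a replicates 1, 6 and 5 had 20.9, 22.4 and 26.8.

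**Figure D2:**
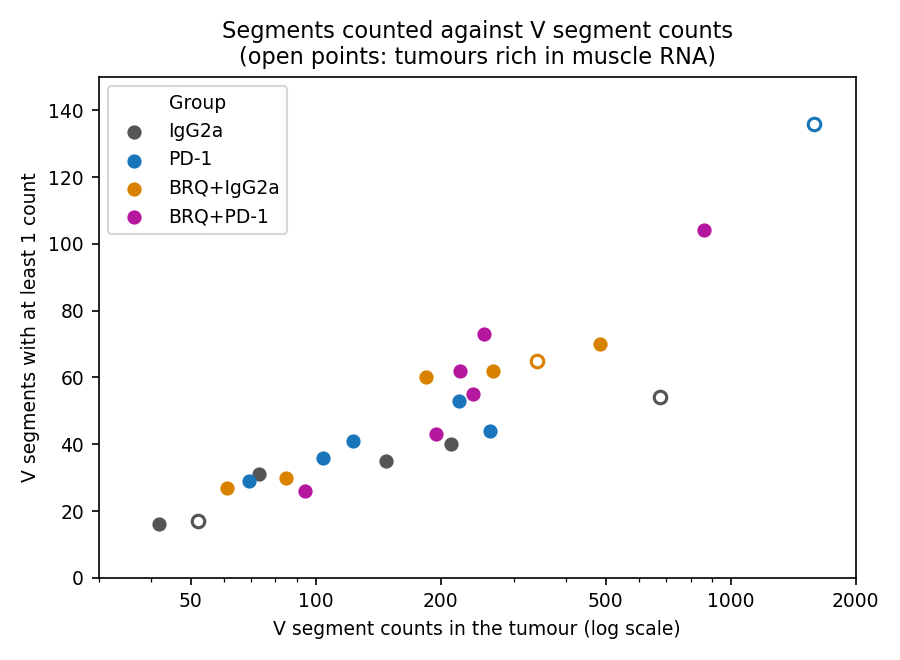
Number of V segments with at least 1 count (vertical axis) against the V segment counts of each tumour (horizontal axis, log scale), coloured by group, with open points for tumours rich in muscle RNA. IgG2a replicate 2 stands below its neighbours, with 54 segments from 676 counts, where BRQ+PD-1 replicate 3 has 104 from 860.

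The top segment held a mean of 19.2 ± 8.71% of a tumour's V counts in IgG2a tumours, against 12.6 ± 3.71%, 14.7 ± 8.57% and 12.5 ± 5.45% in those given PD-1, BRQ+IgG2a and BRQ+PD-1 (SD, n = 6 each). The ranges, in the same order, were 9.59 to 30.2%, 7.64 to 17.5%, 4.68 to 27.1% and 8.07 to 20.6%, and they overlapped. Between 2 segments (IgG2a replicate 2) and 17 segments (BRQ+PD-1 replicate 4) were enough to hold 50% of a tumour's V counts.

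In IgG2a replicates 1 and 2 the V counts were concentrated in each tumour on a heavy and a kappa segment with few counts elsewhere. In IgG2a replicate 2, Igkv9-120 took 204 of 676 V counts, or 30.2% (95% Wilson interval 26.8 to 33.7%), and Ighv2-9-1 took 171, or 25.3% (22.2 to 28.7%). Those were 53.3% of its kappa and 63.3% of its heavy V counts. Igkv9-120 had 49 counts over 13 other tumours, and Ighv2-9-1 had 30 over 7, with its highest share elsewhere, 9.62%, in IgG2a replicate 3. In IgG2a replicate 1, Ighv9-1 took 54 of 212 V counts and Igkv17-121 took 39, which were 52.4% of the heavy and 39.8% of the kappa counts. Ighv9-1 had 22 counts in 4 other tumours, and Igkv17-121 had 23 in 6. In both tumours a single segment thus led each of these chains. Intervals here cover counting error only, because reads without molecular identifiers are not independent molecules.

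The other IgG2a tumours had few V counts, and their top segments rest on few reads. Iglv1 led in IgG2a replicate 3 with 13 of 52 counts (25%, 15.2 to 38.2%) and in IgG2a replicate 6 with 19 of 148. Igkv1-117 led in IgG2a replicate 4 with 5 of 42, and Igkv6-15 and Igkv6-23 shared the lead in IgG2a replicate 5 with 7 each.

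In the PD-1 group no segment led in more than 1 tumour. The leaders were Ighv1-53 in replicate 1 with 26 counts, Igkv1-110 in replicate 2 with 13, Igkv8-30 in replicate 3 with 7, Igkv6-23 in replicate 4 with 20 and Iglv1 in replicate 5 with 46. PD-1 replicate 6, the tumour with most V RNA, had the lowest top share of its group: 136 segments were counted, and Igkv5-43 led with 121 of 1584 counts, or 7.64%. Its top heavy segment, Ighv1-39, had 71 counts there and 0 in the other 5 PD-1 tumours. Igkv1-117 had 113 counts in that tumour, 48.9% of all its counts in the series.

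In both brequinar groups the same heavy segment recurred as the leader. Ighv1-82 had the most V counts, alone or tied, in 4 of 6 BRQ+IgG2a tumours and 4 of 6 BRQ+PD-1 tumours, and in 0 of 6 tumours of either group without brequinar. Among heavy segments alone it led, alone or tied, in 4, 5, 1 and 2 tumours of the BRQ+IgG2a, BRQ+PD-1, IgG2a and PD-1 groups. Over all V segments its lead was narrow in BRQ+PD-1 replicates 1 (9 counts against 7 for the next) and 2 (18 against 16). It was also narrow in BRQ+IgG2a replicate 6 (20 against 16). The lead was wider in BRQ+IgG2a replicates 1 (113 against 42) and 3 (23 against 5). The same held in BRQ+PD-1 replicates 3 (177 against 115) and 6 (44 against 18). The other leaders were Iglv1 in BRQ+IgG2a replicate 2 with 29 counts and Igkv10-96, tied with Ighv1-82 at 16, in BRQ+IgG2a replicate 4. In BRQ+IgG2a replicate 5, Ighv1-9 and Ighv1-58 tied at 7. Igkv6-23 led in BRQ+PD-1 replicates 4 and 5 with 24 and 18 counts.

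**Figure D3:**
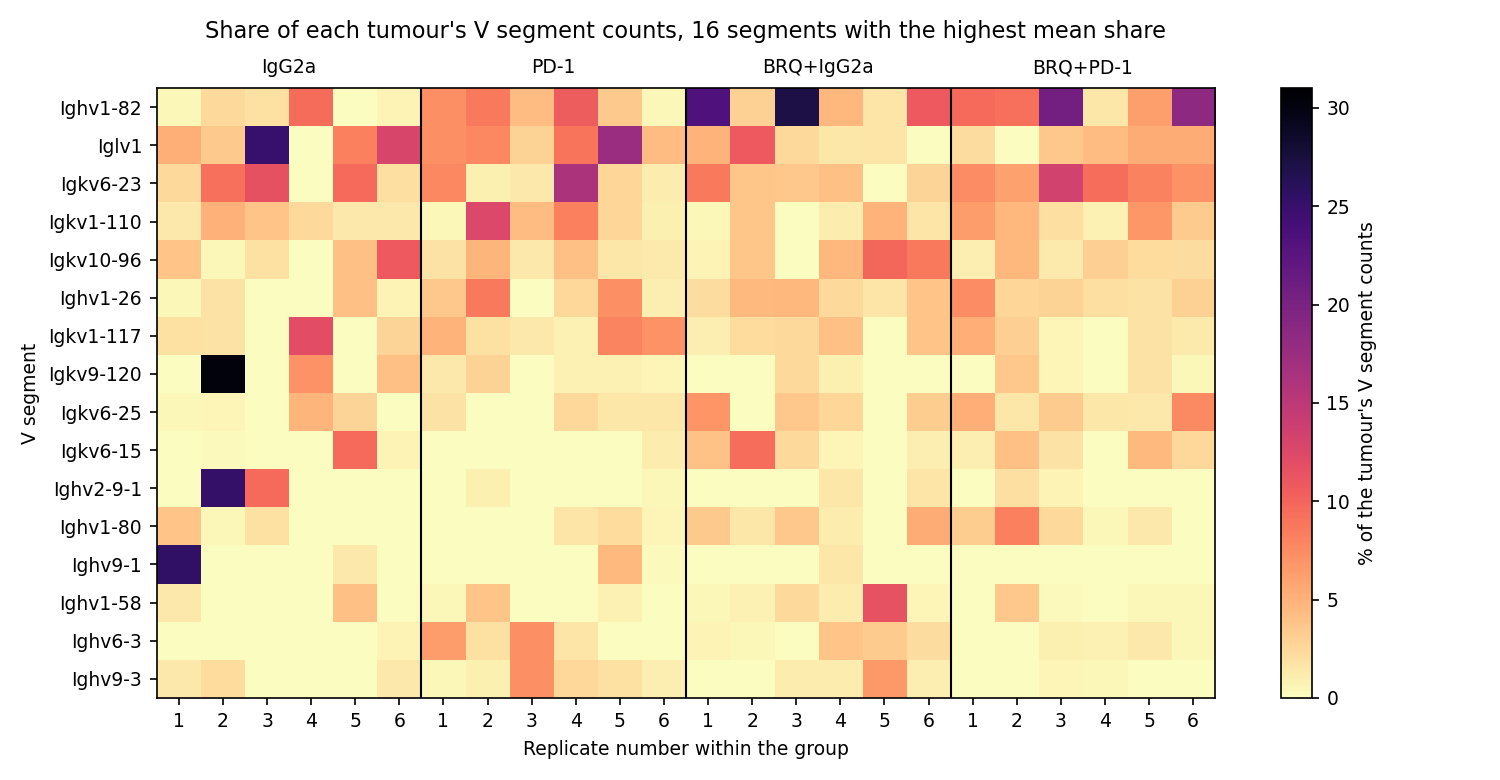
Share of each tumour's V counts (colour, %) for the segments with the highest mean share (rows) in the 24 tumours (columns, by group and replicate number). Ighv1-82 is dark in several brequinar tumours, with 27.1% in BRQ+IgG2a replicate 3 and 20.6% in BRQ+PD-1 replicate 3, while Igkv9-120, Ighv2-9-1 and Ighv9-1 are dark in single IgG2a tumours.

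Averaged over the 24 tumours with equal weight, the segments with the highest shares were Ighv1-82 at 7.74%, Iglv1 at 6.06%, Igkv6-23 at 5.81%, Igkv1-110 at 3.34% and Igkv10-96 at 3.25%. Ighv1-26 (2.86%), Igkv1-117 (2.84%), Igkv9-120 (2.39%), Igkv6-25 (2.198%) and Igkv6-15 (1.79%) followed. The heavy segments counted in most tumours were Ighv1-82 in 23, Ighv1-26 in 21 and Ighv1-80 in 16. The kappa segments counted in most were Igkv1-110 in 23 and Igkv6-23 and Igkv10-96 in 22 each. Igkv9-120 owed its place to 1 tumour, which held 80.6% of its counts, while no tumour held more than 13.0% of the Igkv10-96 counts.

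Only 6 segments passed the expression filter and could be tested across the groups: Ighv1-82, Ighv1-26, Igkv6-23, Igkv1-110, Igkv10-96 and Iglv1, with 26.2% of the V counts. Each comparison was fitted with edgeR's quasi-likelihood test on 16029 genes, with Benjamini-Hochberg adjustment and a threshold of 0.05. In BRQ+PD-1 against IgG2a, 1 of the 6 segments passed, higher in BRQ+PD-1, where 2.48% of all genes tested were called higher and 1.43% lower. None of the 6 passed in the other comparisons. In PD-1 against IgG2a 0.0187% of genes were called higher and 0% lower, and in BRQ+IgG2a against IgG2a 2.96% and 0.493%. In BRQ+PD-1 against PD-1 these were 2.38% and 2.66%, and 0% were called either way in BRQ+PD-1 against BRQ+IgG2a and in the interaction of BRQ with PD-1.

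At an unadjusted p under 0.05, edgeR had 1 of the 6 segments in PD-1 against IgG2a (6.46% of all genes), 1 in BRQ+IgG2a against IgG2a (14.8%) and 2 in BRQ+PD-1 against IgG2a (23.3%). It had 1 in BRQ+PD-1 against PD-1 (21.4%), 0 in BRQ+PD-1 against BRQ+IgG2a (7.29%) and 0 in the interaction (7.62%). DESeq2, which called 5.54% of all genes in BRQ+IgG2a against IgG2a and 9.57% in BRQ+PD-1 against IgG2a, called 1 segment in each. With limma voom, which called more genes than edgeR, 1 segment passed in BRQ+IgG2a against IgG2a (13.2% of all genes), 3 in BRQ+PD-1 against IgG2a (9.08%) and 1 in BRQ+PD-1 against PD-1 (13.7%). DESeq2 called no segment in the last of these (8.77% of all genes). Neither tool called a segment in PD-1 against IgG2a (0.168% of genes with DESeq2, 0.0561% with voom), in BRQ+PD-1 against BRQ+IgG2a (0.025% and 3.87%) or in the interaction (0.0686% and 1.70%).

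The segment called was Ighv1-82 (ENSMUSG00000095127), which rose in BRQ+PD-1 against IgG2a. Its counts were lowest, median and highest at 0, 1 and 16 in the IgG2a tumours and 3, 9 and 16 in the PD-1 tumours. They were 4, 16 and 177 in the BRQ+PD-1 tumours and 1, 18 and 113 in the BRQ+IgG2a tumours. In CPM the means of IgG2a, PD-1, BRQ+IgG2a and BRQ+PD-1 were 0.134 ± 0.210, 0.360 ± 0.155, 1.21 ± 1.62 and 1.88 ± 2.95 (SD, n = 6 each). BRQ+PD-1 replicate 3 with 177 counts and BRQ+IgG2a replicate 1 with 113 were far above the others, and all groups overlapped, since IgG2a replicate 2 had 16 counts and BRQ+IgG2a replicate 5 had 1. The fitted log2 fold change of BRQ+PD-1 against IgG2a was 3.73 ± 0.999 (SE, edgeR adjusted p = 0.0386).

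That call was lost in 7 of the 12 fits that left out 1 tumour. Without BRQ+PD-1 replicate 3 the log2 fold change was 2.33 (edgeR adjusted p = 0.149), without BRQ+PD-1 replicate 6 the adjusted p was 0.0502, and without IgG2a replicate 1, 3, 4, 5 or 6 it lay between 0.0611 and 0.0911. It held without IgG2a replicate 2, at 5.06 (edgeR adjusted p = 0.0153), and without the 4 muscle-rich libraries, at 5.03 (0.0453). It was lost without the expression filter (edgeR adjusted p = 0.0980). Over all alternatives the adjusted p ran from 0.00200 to 0.149.

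In the other comparisons Ighv1-82 did not pass the edgeR test. Its log2 fold change was 3.07 ± 0.99 in BRQ+IgG2a against IgG2a (SE, edgeR adjusted p = 0.0961) and 2.38 ± 0.91 in BRQ+PD-1 against PD-1 (edgeR adjusted p = 0.132). It was 1.36 ± 1.01 in PD-1 against IgG2a (edgeR adjusted p = 0.856), 0.66 ± 0.85 in BRQ+PD-1 against BRQ+IgG2a (0.824) and -0.69 ± 1.29 for the interaction (0.939). The BRQ+IgG2a comparison was called by DESeq2 (3.13, adjusted p = 0.0163) and by voom (3.91, adjusted p = 0.0494). Without BRQ+IgG2a replicate 1 its edgeR estimate was 1.997 (adjusted p = 0.360).

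As a share of heavy V counts, which removes the amount of V RNA, Ighv1-82 had a mean of 7.10% in IgG2a and 13.5% in PD-1 tumours, and of 23.8% in BRQ+PD-1 and 23.2% in BRQ+IgG2a tumours. In the order IgG2a, PD-1, BRQ+IgG2a and BRQ+PD-1, single tumours ran from 0 to 21.1%, 1.19 to 28.3%, 3.57 to 53.6% and 3.70 to 42.2%, so the groups overlapped. The highest shares were in BRQ+IgG2a replicates 1 (53.6%) and 3 (45.1%) and in BRQ+PD-1 replicates 3 (42.2%) and 6 (40.7%). In the tumour with most V RNA, PD-1 replicate 6, it was 1.19%.

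**Figure D4:**
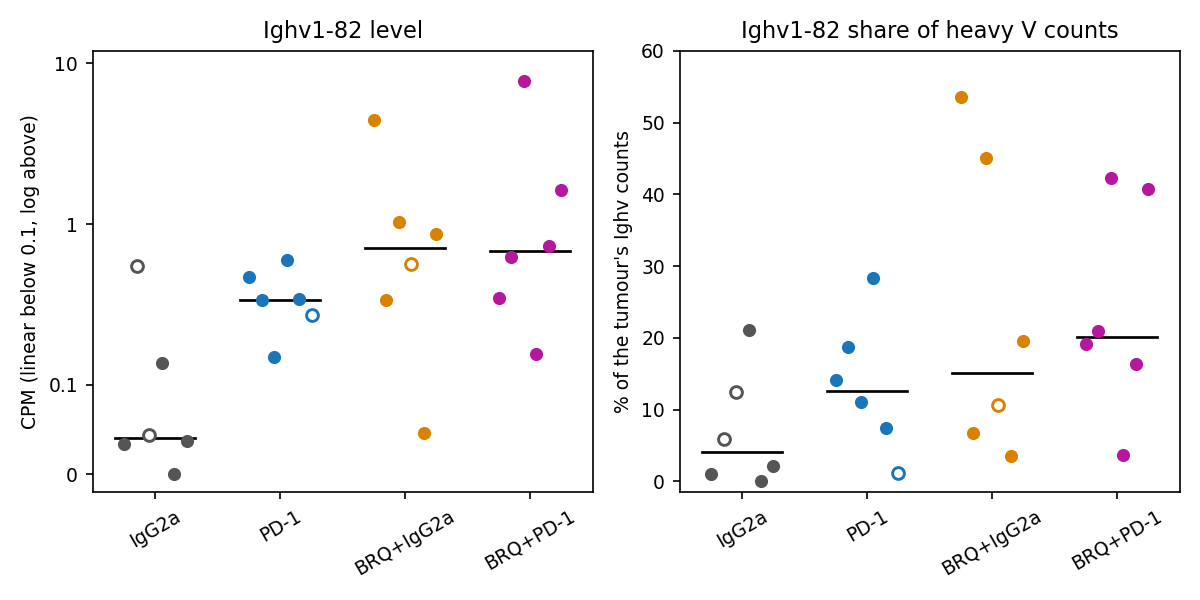
Ighv1-82 in each tumour (point) with group medians (lines): left, level in CPM on an axis that is linear below 0.1 and logarithmic above; right, share of the tumour's heavy V counts in %. Open points are tumours rich in muscle RNA. The highest points are BRQ+PD-1 replicate 3 at 7.82 CPM on the left and BRQ+IgG2a replicate 1 at 53.6% on the right, and the groups overlap in both panels.

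Its relative Ighv1-80 did not pass the filter and was not tested. Summed over the IgG2a, PD-1, BRQ+IgG2a and BRQ+PD-1 tumours it had 12, 16, 38 and 43 counts, with at most 20 in 1 tumour (BRQ+PD-1 replicate 3). It was counted in 3, 3, 5 and 5 tumours of these groups. How far reads moved between Ighv1-82 and Ighv1-80 in counting was not tested.

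Igkv6-23 was the kappa segment with most counts, 416. In BRQ+PD-1 it was counted in all 6 tumours, with 7 to 115 counts and 6.15 to 13.4% of V counts. In IgG2a, PD-1 and BRQ+IgG2a it had 0 to 63, 1 to 20 and 0 to 42 counts. Its log2 fold change in BRQ+PD-1 against IgG2a was 1.45 ± 0.93 (SE, edgeR adjusted p = 0.366), and it was 0.34 without BRQ+PD-1 replicate 3 and 3.08 without IgG2a replicate 2 (edgeR adjusted p = 0.864 and 0.0813). BRQ+PD-1 replicate 3, with 115 counts, was the highest tumour for both Igkv6-23 and Ighv1-82.

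Iglv1, the main lambda segment, had its highest count of 69 in PD-1 replicate 6 and its highest share of V counts, 25%, in IgG2a replicate 3. Its mean shares in IgG2a, PD-1, BRQ+IgG2a and BRQ+PD-1 tumours were 9.11, 8.10, 3.54 and 3.48%, with overlapping ranges. Iglv2 had 33 counts in 7 tumours and led the lambda segments in BRQ+IgG2a replicate 4 with 10. No lambda segment was counted in BRQ+PD-1 replicate 2, BRQ+IgG2a replicate 6 or IgG2a replicate 4, at 0 of 195, 184 and 42 V counts. With 3 counts taken as an approximate upper 95% limit for a count of 0, these correspond to shares of 1.54, 1.63 and 7.14%. That limit covers counting error only.

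In BRQ+PD-1 against IgG2a, the log2 fold change of Iglv1 was 0.14 ± 0.93 (SE, edgeR adjusted p = 0.948). Those of the remaining tested segments were 1.79 ± 0.79 for Ighv1-26 (edgeR adjusted p = 0.173), 0.65 ± 0.77 for Igkv1-110 (0.651) and 0.49 ± 0.76 for Igkv10-96 (0.741). Without IgG2a replicate 2, Ighv1-26 was at 3.14 and passed (edgeR adjusted p = 0.0433), and Igkv1-110 was at 2.502 (0.0609). Over the fits that left out 1 tumour, Ighv1-26 ran from 1.12 to 3.14, Igkv1-110 from 0.39 to 2.502 and Igkv10-96 from 0.22 to 1.27. The median over the 6 tested segments was 1.05 in this comparison, 0.42 in BRQ+IgG2a and 0.78 in PD-1 against IgG2a, beside medians over all genes tested of 0.0089, -0.0073 and -0.00052. These 6 passed the filter through their higher levels over the 4 groups together and do not stand for the other 342 segments. With only the groups compared fitted, the filter let through 2, 0 and 1 segments for BRQ+PD-1, BRQ+IgG2a and PD-1 against IgG2a. The set behind these medians thus depended on levels in the other groups.

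By family, the Ighv1 segments, the largest heavy chain family, took a mean of 27.8% of V counts with 93 of the 348 rows. Their mean shares in IgG2a, PD-1, BRQ+IgG2a and BRQ+PD-1 tumours were 15.4, 26.8, 35.4 and 33.6%. Of these, Ighv1-82 alone had 2.49, 5.77, 11.8 and 10.9% in the same order. In single tumours the Ighv1 family ran from 5.77 to 51.8%, and its differences between groups were not tested. Igkv6, with 9 rows, took 11.5%, and its means were 9.78, 8.25, 12.6 and 15.5% in the same order. Igkv1 took 7.17%, the lambda segments 6.72% and Igkv4, which has 33 rows, 6.45%. Ighv9, led by Ighv9-1 in IgG2a replicate 1, and Ighv2, led by Ighv2-9-1 in IgG2a replicate 2, had their highest group means in IgG2a at 5.70 and 6.28%.

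V segment RNA varied together with the kappa constant region, to which kappa V exons are spliced. Across the 24 tumours, the gene whose log2 level was most like the log2 summed V level was Igkc, the kappa constant region, with Pearson's r of 0.98 among 15974 genes that passed the filter, had a symbol and were not V segments. Jchain, which joins IgM and IgA into larger assemblies, was next at 0.90, and Necap2 (0.82), Bscl2 (0.81) and Sh3tc1 (0.80) followed. Without the 2 tumours farthest from the median, PD-1 replicate 6 and BRQ+PD-1 replicate 3, the values for Igkc and Jchain were 0.97 and 0.84. All points share a library with their V counts. Per Igkc count there were 0.384 to 0.667 Igkv counts in every tumour, although Igkc ran from 1.55 to 69.6 CPM. The heavy chain was less even: per count of the heavy constant regions there were 0.0314 (IgG2a replicate 3) to 0.231 (BRQ+PD-1 replicate 3) Ighv counts. The lowest value rests on 8 Ighv counts against 255 in a muscle-rich library, and the next lowest was 0.0807 (BRQ+IgG2a replicate 3).

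The class of the constant regions differed among the tumours with most V RNA. In IgG2a replicate 2, Igha (IgA) held 55.1% of 1889 heavy constant region counts, the highest share of the 24 tumours, where the Igkv9-120 and Ighv2-9-1 concentration was found. In PD-1 replicate 6, Ighm (IgM) held 78.3% of 4047 counts and Igha 2.57%, and Ighd (IgD), which is made by naive B cells, had 415 counts against at most 17 in any other tumour. In BRQ+PD-1 replicate 3, the IgG genes held 37.8% of 1812, Ighm 34.3% and Igha 27.4%. Of the other tumours where Ighv1-82 held over 40% of heavy V counts, Ighm held 67.2% in BRQ+IgG2a replicate 1, 75.9% in BRQ+IgG2a replicate 3 and 47.3% in BRQ+PD-1 replicate 6.

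Most B cell markers were highest in the tumour with most V RNA. The summed level of a 16-gene B cell list, with Ms4a1, Cd79a and Pax5 among it, was 112.8 CPM in PD-1 replicate 6 and 15.6 to 23.3 CPM in the other PD-1 tumours. It was 13.3 to 21.7 CPM in IgG2a, 15.1 to 32.4 in BRQ+PD-1 and 15.6 to 44.5 in BRQ+IgG2a tumours, where replicate 1 was the highest. Of the 16 genes, Blnk (16.2 CPM) and Cd22 (13.0 CPM) were highest in BRQ+IgG2a replicate 1 and the others in PD-1 replicate 6. Cxcl13, a chemokine of lymphoid follicles, had 12.9 CPM in PD-1 replicate 6 and a median of 0.339 over all tumours. A list of 8 lymph node and lymphoid stroma genes summed to 40.8 CPM in that tumour, to at most 6.13 in the other PD-1 tumours and to at most 20.8 in the other groups. The part of such cells in the V levels of the PD-1 group was not tested.

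**Figure D5:**
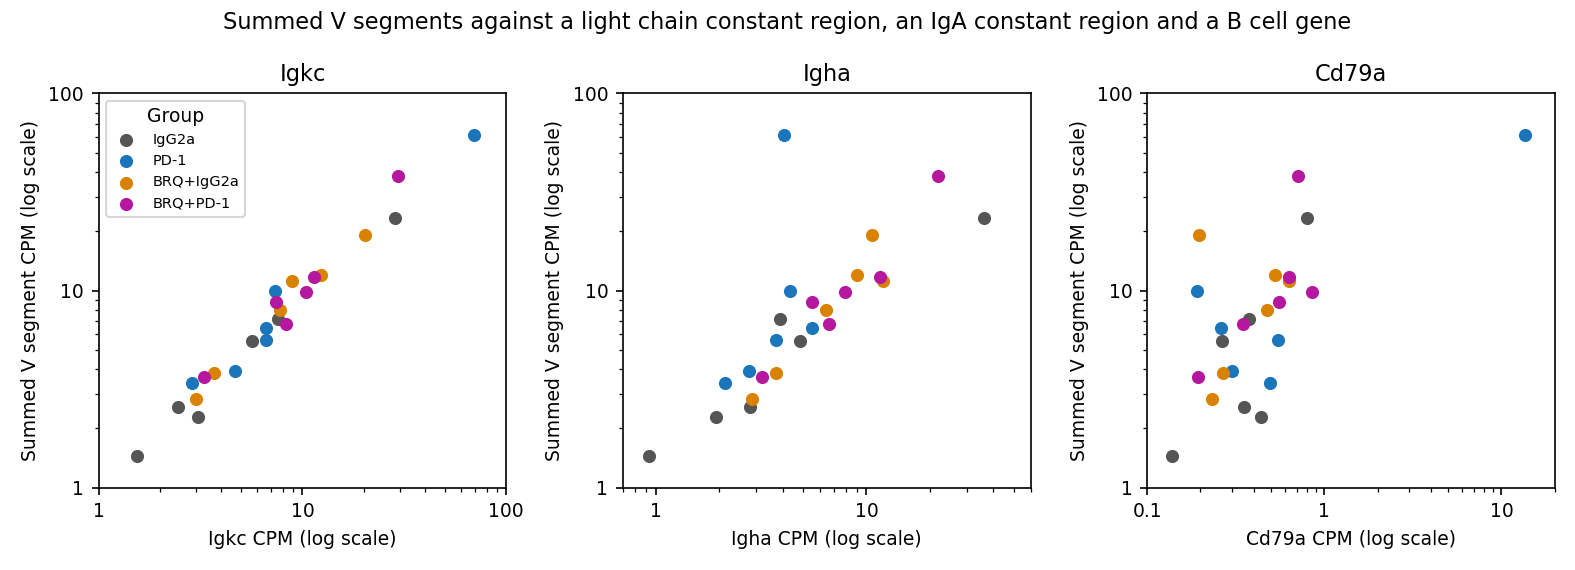
Summed V segment level (vertical axis, CPM, log scale) against Igkc, Igha and Cd79a (horizontal axes, CPM, log scale) in the 24 tumours, coloured by group. Points follow a line for Igkc, while PD-1 replicate 6 stands apart with 4.04 CPM of Igha and 13.6 CPM of Cd79a at a V level of 61.6 CPM.

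The plasma cell genes were not uniform. Jchain was counted in all tumours at 0.413 to 8.17 CPM and Mzb1 in 11 at up to 0.310 CPM. Of the 11 listed genes, Derl3, Pou2af1, Tnfrsf17 and Xbp1 were highest in PD-1 replicate 6, and Jchain and Prdm1 in BRQ+PD-1 replicate 3. Irf4 and Tnfrsf13b were highest in BRQ+IgG2a replicate 1, and Mzb1, Sdc1 and Eaf2 each in another tumour. Sdc1 and Xbp1, which other cells also express, were above 100 CPM in every tumour. Rag1 and Rag2, the recombinase that joins segments in developing B cells, were at 0 in all 24.

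None of the 8 constant region genes that passed the filter (of 13 listed) was called by edgeR in any of the 6 comparisons. At an unadjusted p under 0.05 there were 3, 1 and 0 of them in PD-1, BRQ+IgG2a and BRQ+PD-1 against IgG2a. There were 2 in BRQ+PD-1 against PD-1, 0 in BRQ+PD-1 against BRQ+IgG2a and 2 in the interaction. DESeq2 called 0 in each, and voom called 2 higher in each of BRQ+IgG2a and BRQ+PD-1 against IgG2a and in BRQ+PD-1 against PD-1, where it called 13.2, 9.08 and 13.7% of all genes. In the order of the edgeR counts above, the shares of all genes at an unadjusted p under 0.05 were 6.46, 14.8, 23.3, 21.4, 7.29 and 7.62%. Nor did edgeR call any of the 8 tested B cell genes or the 9 tested plasma cell genes. In the same order, 3, 3, 1, 2, 0 and 2 of the B cell genes had an unadjusted p under 0.05. Those numbers were 1, 4, 1, 2, 0 and 0 for the plasma cell genes. For these, DESeq2 called 1 B cell gene higher in BRQ+IgG2a against IgG2a (5.54% of all genes). Voom called 3 B cell and 2 plasma cell genes higher there (13.2% of all genes), 2 plasma cell genes higher in BRQ+PD-1 against PD-1 (13.7%), and at most 1 of either list in any other comparison. Mzb1 and Ms4a1 did not pass the filter.

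In log2 fold change against IgG2a, Ighm was 1.97 ± 0.69 in PD-1 (SE, edgeR adjusted p = 0.523), 1.19 ± 0.68 in BRQ+PD-1 (0.303) and 1.65 ± 0.68 in BRQ+IgG2a (0.243). In the order PD-1, BRQ+IgG2a and BRQ+PD-1, Igkc was 0.98, 0.18 and 0.53 with edgeR adjusted p of 0.875, 0.955 and 0.730, and Jchain was 0.31, 0.34 and 0.65 with 0.966, 0.866 and 0.560. Cd79a, part of the B cell receptor, was 2.65, -0.024 and 0.46 in that order (edgeR adjusted p = 0.467, 0.995 and 0.787). Without PD-1 replicate 6, the PD-1 values of Cd79a, Igkc, Jchain and Ighm were -0.16, -0.53, -0.46 and 0.65 (edgeR adjusted p = 0.962, 0.909, 0.912 and 0.819). In BRQ+PD-1 against PD-1 Cd79a was -2.195 (edgeR adjusted p = 0.123), and 0.62 without that tumour.

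The V segments of the T cell receptor, matched by the same kind of rule (170 rows), had means of 1.75, 3.72, 8.04 and 5.08 CPM in IgG2a, PD-1, BRQ+IgG2a and BRQ+PD-1. Their highest tumour was BRQ+IgG2a replicate 6 at 17.6 CPM, where the immunoglobulin V level was 7.95 CPM. PD-1 replicate 6, highest for immunoglobulin V RNA, had 4.39 CPM of T cell receptor V RNA. The difference between the 2 kinds of segment was not tested.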

How the data were processed

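The authors deposited raw counts per gene for 24 tumours, and these counts were used as deposited; the deposited FPKM and TPM tables cover part of the genes and were not used here. HISAT2 2.2.1, StringTie 2.2.1, Trim Galore 0.6.7, MultiQC 1.11 and FastQC 0.11.8 are named with build GRCm39, per the submitters' processing notes. For the counting step, the tool, annotation and strandedness are not stated in these sources. Per the labels' protocols, RNA came from RNeasy mini extractions with RIN above 9.

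All genes were fitted in R 4.3.3 with edgeR 4.0.16 (quasi-likelihood, TMM scaling, filterByExpr, robust dispersion) on all 24 libraries with 1 term per group, leaving 20 residual degrees of freedom. The step was tested on simulated counts. DESeq2 1.42.0 and limma 3.58.1 (voom with sample quality weights) were alternatives. The labels call the replicates biological but name no animals, so p-values measure the spread between these samples. No pair of libraries within a group agreed within sampling noise. Symbols came from gene IDs by a table; V exons were aligned with Biopython 1.88.

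Named segments were those called, the leader of each tumour and of each chain in the 3 tumours with most V counts, the 10 with the highest mean share, and the 3 heavy and 3 kappa segments counted in most tumours. Others, such as Igkv17-121 and Iglv2, were named after their values were seen. The members and all lists were chosen with earlier results of these data known. Summed levels, segment numbers and shares carry no test. One marker gene is not reported here.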

Additional observations from a re-analysis of the deposited data

Results flagged for a closer look

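Of 28 sets of 6 tumours (a measure in a group), 13 held a highest value that stood apart from the other 5 by Dixon's 95% criterion, where chance gives about 1 in 20 for values that follow a normal distribution. CPM values are skewed, so that rate need not hold here. The sets share tumours, and the 13 values came from 4 of them. On log2(CPM + 0.1), a scale chosen after seeing the data, 2 of the 12 CPM values still stood apart: the summed V level and the Igkv level of PD-1 replicate 6.

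IgG2a replicate 2 stood apart in summed V level at 23.3 CPM (next 7.21), in Ighv level at 9.32 CPM, in Igkv level at 13.2 CPM and in Ighv1-82 at 0.552 CPM. PD-1 replicate 6 stood apart in summed V level at 61.6 CPM (next 9.99), in Ighv level at 22.9 CPM, in Igkv level at 35.4 CPM and in the number of segments counted, 136 (next 53). BRQ+PD-1 replicate 3 stood apart in summed V level at 38.0 CPM (next 11.7), in Ighv level at 18.5 CPM, in Igkv level at 18.1 CPM and in Ighv1-82 at 7.82 CPM. BRQ+IgG2a replicate 1 stood apart in Ighv1-82 at 4.45 CPM (next 1.03).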

How the results depend on the processing

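The number of V segments called changed most in BRQ+PD-1 against IgG2a: it was 1 as reported, 3 with voom (Ighv1-82, Igkv6-23 and Ighv1-26; 9.08% of all genes called), and 0 without the expression filter (0.901% of all genes) or when these 2 groups were fitted alone (2.45%), a fit whose filter no longer let Ighv1-82 through; leaving out 1 tumour gave 0 to 2. In BRQ+IgG2a against IgG2a it was 1 with DESeq2 and 1 with voom (Ighv1-82), and 0 to 1 with 1 tumour left out; fitting these groups alone tested no segment. In BRQ+PD-1 against PD-1 voom called 1, Igkv6-23. Relative log expression scaling, a fit without robust dispersion and the fit without muscle-rich libraries left the count of called segments as reported in all 6 comparisons. Apart from the fewer segments tested in the groups fitted alone, the cause was not tested.

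With the replicate number as a block, 0 segments were called in BRQ+PD-1 against IgG2a (1.78% of all genes), and Ighv1-82 had an adjusted p of 0.111 (edgeR); the block left the count of called segments at 0 in the other 5 comparisons. The numbers do not pair the tumours: over 36 same-numbered pairs the correlation of deviations from the group means ran from -0.64 to 0.44, with 15 over 0.1, and 1 of 24 libraries correlated best with its own number.

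With at least 5 counts required, the mean number of segments was 20 in PD-1, 19.8 in BRQ+PD-1, 13.8 in BRQ+IgG2a and 7.33 in IgG2a. PD-1 replicate 6 had 72 such segments, and the other PD-1 tumours had 3 to 19. At equal V counts the means of the groups, in the same order, were 26.5, 28.1, 27.8 and 20.6, the last over 5 tumours. Within its own chain, the top heavy segment held means of 39.9, 20.04, 27.7 and 24.3% in the IgG2a, PD-1, BRQ+IgG2a and BRQ+PD-1 tumours, and the top kappa segment 28.4, 21.6, 16.5 and 17.1%. In IgG2a replicates 3, 4 and 5 the top heavy segment had only 5 of 8, 4 of 19 and 3 of 21 heavy counts. Top shares were not brought to equal counts. Dividing counts by exonic length, an alternative chosen after seeing the data, moved no group mean of the top share by more than its SD.

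Of single genes, Cd79a changed sign in BRQ+IgG2a against IgG2a with voom (0.19) and without muscle-rich libraries (0.35), and in BRQ+PD-1 against PD-1 (0.55 and 0.62). Leaving out 1 tumour gave Cd79a from -0.20 to 0.29 and from -2.44 to 0.62 in those comparisons and from -0.16 to 2.97 in PD-1 against IgG2a. It gave Ighv1-82 from -0.74 to 1.74 in BRQ+PD-1 against BRQ+IgG2a and from -2.10 to 0.38 for the interaction, and Iglv1 from -0.49 to 0.41 in BRQ+PD-1 against IgG2a. Igkc ran from -0.53 to 1.97 and Jchain from -0.46 to 1.08 in PD-1 against IgG2a, and from -0.20 to 1.17 and -0.093 to 1.12 in BRQ+IgG2a against IgG2a. At 42 to 1584 V counts per tumour, a segment at a few counts cannot be compared between groups.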
